A study of Homo sapiens with 6 samples.

Results

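Complex I, or NADH:ubiquinone oxidoreductase, is the entry point of electrons from NADH into the respiratory chain and pumps protons across the inner mitochondrial membrane. Most of its subunits are made from nuclear genes, but the hydrophobic core of its membrane arm is encoded by mitochondrial DNA. These mitochondrial genes are copied into long precursor RNAs that are cut into single messengers, and MT-ND4L and MT-ND4 stay together on a shared messenger. MT-ND6 is the member read from the light-strand promoter, on the opposite strand to the others. The levels described here are those of 7 transcripts, MT-ND1 (ENST00000361390), MT-ND2 (ENST00000361453), MT-ND3 (ENST00000361227), MT-ND4L (ENST00000361335), MT-ND4 (ENST00000361381), MT-ND5 (ENST00000361567) and MT-ND6 (ENST00000361681). They were chosen by these identifiers among the 102731 transcripts of the deposited mRNA table, and all 7 were present.

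The prostate carcinoma cell line PC3, labelled sensitive to the microtubule-stabilising drug docetaxel, was set against PC3-DR, a resistant line made from it. PC3-DR was selected in cycles of 48 h at 4 to 12 nM docetaxel, then in continuous drug raised in steps of 5 nM from 10 to 50 nM, and was held at 40 nM for 1 month. Each line gave 3 libraries of total RNA. The labels name no separate cultures or clones, so the p-values measure only the spread between these libraries, which may be technical. Levels are in FPKM, a read count scaled to transcript length and library total. With the gene lengths of RefSeq (GRCh38.p14), all 78 values of the 13 mitochondrially encoded protein transcripts came out as whole reads within 0.0003 of a read. The totals that gave this were between 14410509 and 16185938 in 5 libraries and 43153396 in PC3-DR replicate 1. The lengths used are those of the human genes, although the submitters' processing notes name a mouse build.

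The 7 transcripts fell into 3 patterns. MT-ND1, MT-ND2, MT-ND3, MT-ND4 and MT-ND5 stood at 2996 FPKM or more in every library, and none of these 5 passed the test between PC3-DR and PC3. MT-ND4L stood at 1 or 2 reads in every library. MT-ND6 stood at 3353 FPKM or more in PC3-DR replicates 1 and 2 and below 1 FPKM in the other 4 libraries. The groups overlapped in all 7 transcripts.

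**Figure D1:**
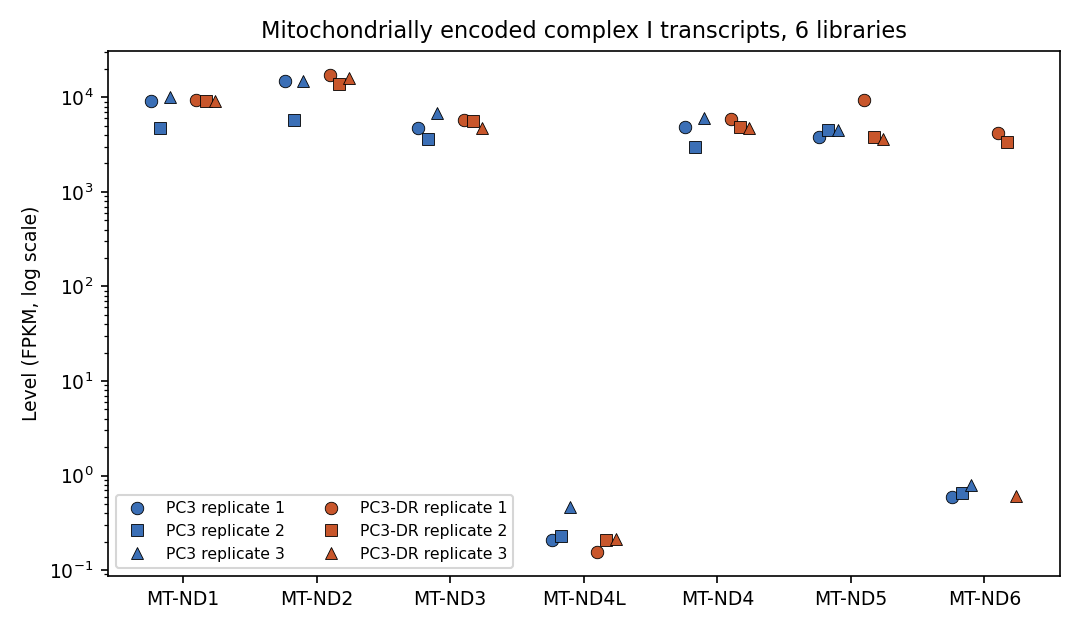
Level of each transcript in FPKM on a log axis, with 1 point per library, in blue for PC3 and orange for PC3-DR and with a marker for each replicate number. MT-ND4L lies between 0.156 and 0.467 FPKM throughout, and MT-ND6 splits PC3-DR, with replicate 3 at 0.610 FPKM beside the PC3 libraries.

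MT-ND2, a proton-pumping subunit of the membrane arm, had the highest level of the mRNA table in all 6 libraries. It stood at 14888, 5766 and 15040 FPKM in PC3 replicates 1 to 3. PC3-DR replicates 1 to 3 held 17396, 13708 and 15939 FPKM. PC3 replicate 2 was far below the other 5 libraries, and PC3-DR replicate 2 lay below the remaining PC3 libraries, so the groups overlapped. PC3 averaged 11898 ± 5311 FPKM (SD, n = 3) and PC3-DR averaged 15681 ± 1858 FPKM (SD, n = 3). Limma gave a difference of PC3-DR minus PC3 of 0.52 ± 0.81 (SE) on the log2(FPKM + 1) scale and an adjusted p of 0.917.

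MT-ND4 is another proton-pumping subunit of the same arm. PC3 replicates 1 to 3 held 4864, 2996 and 6112 FPKM of it, and PC3-DR replicates 1 to 3 held 5840, 4886 and 4769 FPKM. PC3 supplied both the lowest and the highest library. PC3 averaged 4657 ± 1568 FPKM (SD, n = 3) against 5165 ± 588 FPKM for PC3-DR (SD, n = 3), a log2 difference of 0.20 ± 0.69 (SE; adjusted p = 0.956 in limma).

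MT-ND5 encodes the pumping subunit at the far end of the membrane arm. Its level was 3799, 4475 and 4557 FPKM across PC3 replicates 1 to 3. The level was 9419, 3789 and 3619 FPKM across PC3-DR replicates 1 to 3. PC3-DR replicate 1 was 2.54 times the mean of the other PC3-DR libraries, which both lay below every PC3 library. Over all tested transcripts the median log2 ratio of that library to the other PC3-DR libraries was -0.53, so it stood apart across the table as well, and its part in the MT-ND5 value was not tested. The higher PC3-DR mean, 5609 ± 3301 FPKM (SD, n = 3) against 4277 ± 416 FPKM (SD, n = 3) for PC3, therefore rested on that library. The log2 difference was 0.25 ± 0.72 (SE; adjusted p = 0.949 in limma), and it was -0.20 without PC3-DR replicate 1.

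MT-ND1 forms part of the ubiquinone-binding site where the membrane arm meets the peripheral arm. PC3 replicates 1 to 3 stood at 9198, 4744 and 10159.7 FPKM. PC3-DR replicates 1 to 3 stood at 9308, 9169 and 9114 FPKM. The PC3-DR libraries were close together and lay within the range of PC3. The PC3 mean was 8034 ± 2889 FPKM (SD, n = 3), the PC3-DR mean was 9197 ± 100.01 FPKM (SD, n = 3), and the log2 difference was 0.27 ± 0.74 (SE; adjusted p = 0.946 in limma).

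MT-ND3 is a small subunit near the junction of the arms. It reached 4757, 3668 and 6782 FPKM across PC3 replicates 1 to 3 and 5762, 5645 and 4775 FPKM across PC3-DR replicates 1 to 3. Here too the extremes were both PC3 libraries. The log2 difference was 0.13 ± 0.69 (SE; adjusted p = 0.970 in limma), between means of 5069 ± 1580.4 FPKM (SD, n = 3) for PC3 and 5394 ± 539 FPKM (SD, n = 3) for PC3-DR.

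Across the whole mRNA table, 0.00401% of the 24937 tested transcripts passed at an adjusted p under 0.05 in limma, 1 transcript in all. Of the 7 complex I transcripts 5 reached the level needed for testing, at least 1 FPKM in at least 3 libraries. Of these 5, 0 passed in limma, and 0 had an unadjusted p under 0.05, also with voom on the recovered reads. Separated groups were seen in 0 of the 7 members, against 7.55% of all transcripts of the table and 11.1% of those tested. The median log2 difference was 0.25 over the 5 tested members and -0.13 over all tested transcripts, a gap that depended on which transcripts and libraries were used. Among the 794 transcripts that reached 5 FPKM in at least 3 libraries the median was 0.71, above that of the members. Without PC3-DR replicate 1 the medians were 0.11 for the members and 0.04 for all tested transcripts. All 5 differences were above 0, as were 39.9% of those of all tested transcripts. The 5 values are not independent, since they share libraries and precursor RNA. With quantile normalization MT-ND1 and MT-ND3 turned to -0.12 and -0.08, but that setting cannot show a shift shared by the abundant mitochondrial transcripts. These hold the first 8 ranks in every library, so only their order among themselves counts there.

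The 95% intervals were wide, and they do not show that the lines have equal levels. For MT-ND2 the interval ran from -1.29 to 2.33 and for MT-ND3 from -1.40 to 1.66 on the log2 scale. Few transcripts reach such levels, and the spread that limma assigned to them depended on its intensity trend. Without the trend the SE of MT-ND2 was 0.45 and its adjusted p 0.896.

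**Figure D2:**
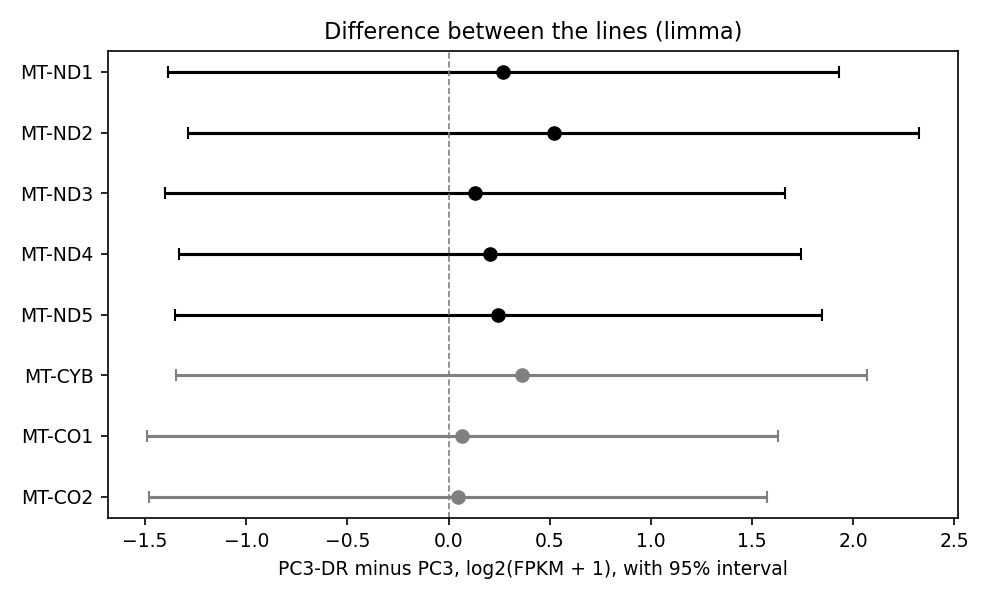
Difference of PC3-DR minus PC3 in log2(FPKM + 1) with its 95% interval from limma, in black for the 5 tested complex I transcripts and in grey for 3 other mitochondrially encoded transcripts. All 8 intervals include 0, and the points lie between 0.05 and 0.52.

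PC3 replicate 2 set most of the spread. It was the lowest of the 6 libraries for MT-ND1, MT-ND2, MT-ND3 and MT-ND4. Relative to the mean of the other PC3 libraries it stood at 0.385 for MT-ND2, 0.490 for MT-ND1, 0.546 for MT-ND4 and 0.636 for MT-ND3, but at 1.07 for MT-ND5. The median log2 ratio of this library to the other PC3 libraries over all tested transcripts was 0.17, so the drop was not shared by the table at large. MT-CYB of complex III and MT-CO1 and MT-CO2 of complex IV were low there as well, at ratios of 0.434, 0.679 and 0.656. Without PC3 replicate 2 the differences were -0.07 for MT-ND1, -0.08 for MT-ND3, -0.08 for MT-ND4 and 0.06 for MT-ND2. Fewer mitochondrial transcripts per cell, fewer cells rich in them and a technical difference of this library cannot be told apart in these bulk RNA values.

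**Figure D3:**
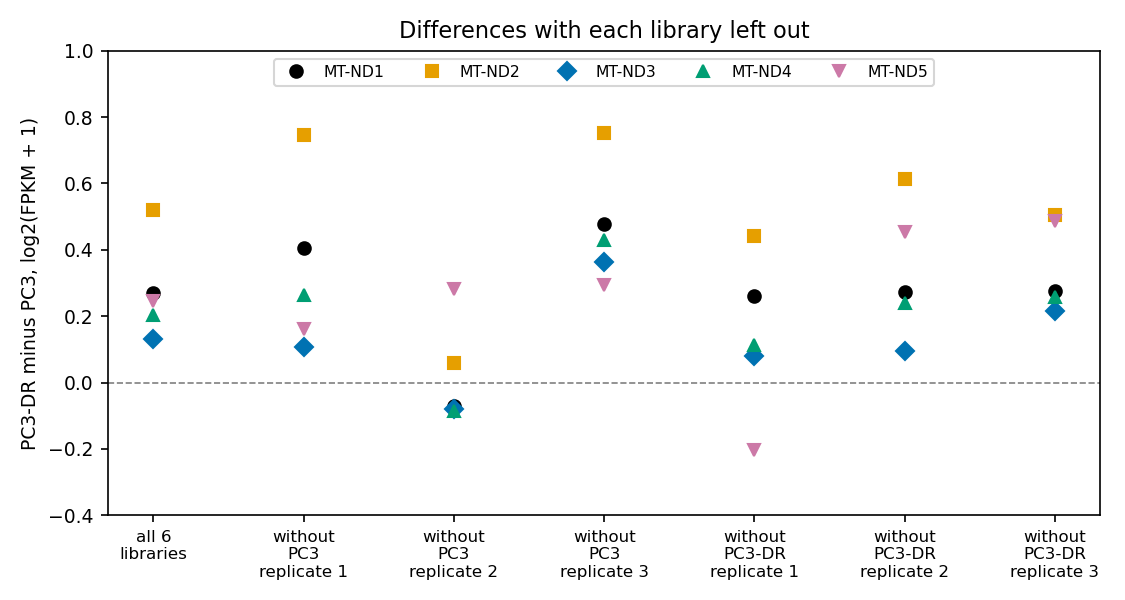
Difference of PC3-DR minus PC3 in log2(FPKM + 1) for the 5 tested complex I transcripts, with all 6 libraries and with each library left out in turn. Without PC3 replicate 2 the points of MT-ND1, MT-ND3 and MT-ND4 fall just below 0, and without PC3-DR replicate 1 MT-ND5 falls to -0.20.

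FPKM values are scaled for length, so the listed values can be set side by side between genes. How the authors' counting assigned reads was not tested, so their order need not be that of the RNA levels. MT-ND2 was above MT-ND1 in 6 of 6 libraries, by a ratio between 1.22 and 1.87. MT-ND1 was above MT-ND3 in 6 of 6, by a ratio between 1.29 and 1.93. Below these, MT-ND3, MT-ND5 and MT-ND4 had no fixed order. MT-ND3 exceeded MT-ND5 in 4 of 6 libraries, and MT-ND5 exceeded MT-ND4 in 2 of 6.

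Taking MT-ND4 as the reference within each library removes a shift common to all members. MT-ND1 stood at 1.71 ± 0.16 times MT-ND4 (SD, n = 3) in PC3 and 1.79 ± 0.17 times (SD, n = 3) in PC3-DR, a gap smaller than the spread. MT-ND3 stood at 1.10 ± 0.12 and 1.05 ± 0.09 times in the same order. MT-ND2 stood at 2.48 ± 0.57 times in PC3 and 3.04 ± 0.27 times in PC3-DR, with overlapping libraries.

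MT-ND5 behaved otherwise. Across PC3 replicates 1 to 3 its ratio to MT-ND4 was 0.781, 1.49 and 0.746, and across PC3-DR replicates 1 to 3 it was 1.61, 0.776 and 0.759. The ratio was thus close to the same value in 4 libraries and far higher in 1 library of each line, PC3 replicate 2 and PC3-DR replicate 1. The non-coding transcript NONHSAT222363.1 of the deposited lncRNA table, named after its values were seen, was listed at 0 in those same 2 libraries. It stood between 6652 and 8360 FPKM in the other 4. Of 19 transcripts of the lncRNA table that reached 1000 FPKM in any library, 3 were at 0 in at least 1 library. Whether it overlaps MT-ND5 is not given in the sources used here, and its part in the ratio was not tested.

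**Figure D4:**
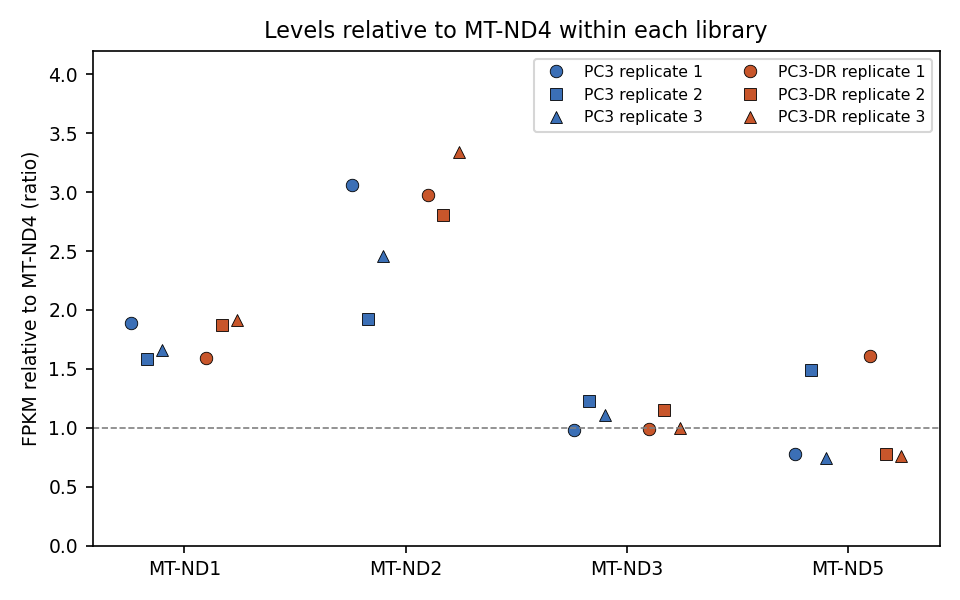
FPKM of 4 complex I transcripts divided by that of MT-ND4 in the same library, with 1 point per library and a dashed line at a ratio of 1. For MT-ND5, PC3 replicate 2 (1.49) and PC3-DR replicate 1 (1.61) stand apart from the other 4 libraries.

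MT-ND6 encodes a membrane-arm subunit that contacts MT-ND4L in the assembled enzyme. It stood at 0.588, 0.651 and 0.793 FPKM in PC3 replicates 1 to 3, which are 5, 5 and 6 reads. In PC3-DR replicates 1 and 2 it stood at 4206 and 3353 FPKM, or 95278 and 28215 reads. PC3-DR replicate 3 held 0.610 FPKM, or 5 reads, and lay within the PC3 range. PC3-DR replicates 1 and 2 were 6894 and 5496 times replicate 3 of the same line. These folds divide by only 5 reads, which need not be sampled reads, so their size is uncertain.

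MT-ND6 was not tested, since only 2 libraries reached 1 FPKM. With no filter the difference was 7.40 ± 2.47 (SE) on the log2(FPKM + 1) scale, with an adjusted p of 0.774 in limma over 102731 transcripts. The PC3-DR mean, 2519.6 ± 2223 FPKM (SD, n = 3), lay far from each of its libraries. In the high libraries MT-ND6 made up 8.10% and 8.27% of the summed FPKM of the 7 transcripts, and in the other 4 at most 0.00301%. Of the 9 mRNA-table transcripts that reached 1000 FPKM in any library, 1, MT-ND6, was below 1 FPKM in another library of its own group. Of 24 transcripts that reached 100 FPKM, 2, with MT-ND6 among them, showed such a switch to below 1 FPKM. The threshold of 10 FPKM admits far smaller folds than that of MT-ND6. Of 615 transcripts that reached 10 FPKM, 128 (20.8%) were below 1 FPKM in another library of the same group.

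The switch of MT-ND6 did not follow the libraries in which MT-ND5 was high. MT-ND5 precedes MT-ND6 on the mitochondrial genome and is read from the opposite strand. PC3-DR replicate 1 was high for both, PC3-DR replicate 2 for MT-ND6 alone and PC3 replicate 2 for MT-ND5 relative to MT-ND4 alone. The strand setting of the authors' counting is not given in the sources used here, so reads of MT-ND6 and of RNA from the other strand cannot be told apart.

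MT-ND4L, whose reads were few, encodes a small subunit next to MT-ND6 in the enzyme. PC3 replicates 1 to 3 held 0.208, 0.230 and 0.467 FPKM, and PC3-DR replicates 1 to 3 held 0.156, 0.210 and 0.216 FPKM. These values are 1, 1 and 2 reads in PC3 and 2, 1 and 1 reads in PC3-DR. No difference between the lines was detectable from so few reads. Over the 6 libraries MT-ND4L held 8 reads, and MT-ND4, with which it shares a messenger in human cells, held 848066.

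The other 6 mitochondrially encoded protein transcripts showed both kinds of level. MT-CYB, MT-CO1 and MT-CO2 stood between 3954 and 11975 FPKM, and MT-CO3, MT-ATP6 and MT-ATP8 held 1 or 2 reads in every library. Of the 13 transcripts, 4 never exceeded 2 reads, namely MT-ND4L, MT-CO3, MT-ATP6 and MT-ATP8. Of their 24 values 21 were 1 read, 3 were 2 reads and 0 were 0, also in PC3-DR replicate 1 with its larger total. Such even values need not be sampled reads, so no fold or counting interval is drawn from them. In RefSeq all 4 share bases with a neighbouring protein gene, as does only MT-ND4 among the other 9. How the authors' counting treated reads in shared bases was not tested, and neither was the part of nuclear copies of mitochondrial genes.

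Of the 3 other transcripts that were tested, 0 passed in limma and 0 had an unadjusted p under 0.05. Their log2 differences were 0.36 for MT-CYB, 0.07 for MT-CO1 and 0.05 for MT-CO2. The summed FPKM of the 5 abundant complex I transcripts was 1.72, 1.61 and 1.64 times that of MT-CYB, MT-CO1 and MT-CO2 together in PC3 replicates 1 to 3. In PC3-DR replicates 1 to 3 it was 1.89, 1.73 and 1.86 times. The PC3-DR values lay above those of PC3, but the lowest PC3-DR library and the highest PC3 library were close, at 1.729 and 1.725. The sum includes MT-ND5, which in PC3-DR replicate 1 was 2.54 times the mean of the other PC3-DR libraries. The ratio was not taken without MT-ND5, so the order of the groups need not hold without it.

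The 8 abundant mitochondrial transcripts, 5 of them from complex I, took the first 8 ranks of the mRNA table in every library, and MT-ND6 took rank 9 in PC3-DR replicates 1 and 2. The highest value of any transcript of that table that is not mitochondrially encoded was 463.6 FPKM. The 7 complex I transcripts made up 26.8% ± 7.3 (SD, n = 3) of the summed FPKM of the mRNA table in PC3, and 31.5% ± 5.2 (SD, n = 3) in PC3-DR. As reads they made up 3.95%, 2.41% and 4.44% of the library total in PC3 replicates 1 to 3 and 5.63%, 4.04% and 4.01% in PC3-DR replicates 1 to 3. By that share PC3-DR replicate 1 was the highest and PC3 replicate 2 the lowest. Of the summed FPKM of both deposited tables the 7 transcripts made up 3.33% ± 1.14 (SD, n = 3) for PC3 and 3.84% ± 0.15 (SD, n = 3) for PC3-DR. There PC3-DR replicate 1, at 3.71%, was the second lowest library, so its place depended on the denominator. The summed FPKM of the 7 averaged 33937 ± 10947 (SD, n = 3) in PC3 and 43566 ± 7337 (SD, n = 3) in PC3-DR. The groups overlapped, with PC3 replicate 3 at 42653 FPKM and PC3-DR replicate 3 at 38219 FPKM. MT-ND6, high in PC3-DR replicates 1 and 2 alone, averaged 2519.6 FPKM in PC3-DR and 0.678 FPKM in PC3. Without PC3 replicate 2 the gap between the mean sums was 3486.6 FPKM, and MT-ND6 made up most of it.

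The tested transcripts whose profile over the 6 libraries was most like the mean log2(FPKM + 1) of the 5 abundant members were ENST00000308824 (Pearson r = 0.993) and ENST00000478138 (r = 0.986). These were picked as the highest of 24929 correlations, each over only 6 libraries, and all transcripts of a library share its scaling. Both transcripts stood below 4 FPKM, and ENST00000308824 was at 0 in PC3 replicate 2. Among the members the correlation with that mean, which contains them, was between 0.882 and 0.978 for MT-ND1, MT-ND2, MT-ND3 and MT-ND4 and 0.483 for MT-ND5. It was 0.968 for MT-CYB, 0.943 for MT-CO1 and 0.892 for MT-CO2, which the mean does not contain, so the profile was not particular to complex I. The nuclear-encoded subunits of complex I, its assembly factors and cell line markers were not analysed here, since no table used here pairs the transcript identifiers with gene symbols.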

How the data were processed

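Total RNA of 3 PC3 and 3 PC3-DR libraries was sequenced, per the labels' protocols. Per the submitters' processing notes, the tools included the aligners HISAT2 and TopHat2, the assembler StringTie, the counter featureCounts and the packages DESeq and limma, with mm9 named as build and no roles stated. No header names the unit of the values that the authors deposited, and they were read as FPKM from their own structure. Library totals were sought that made the values of 13 mitochondrial transcripts whole reads (within 0.01) at RefSeq lengths, and the smallest was kept. Multiples of a total also give whole reads, so only the smallest total is used, and reads and fragments cannot be told apart. In simulated data the true total was found in 20 of 20 runs, and 20 of 20 unstructured sets were rejected. With these totals, 99.999% of 71088 mRNA-table transcripts above 0 in at least 3 libraries had a whole-number length between 200 and 60000 nt. 0 columns belonged to no sample.

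Transcripts reaching 1 FPKM in at least 3 libraries were tested with limma 3.58.1 (R 4.3.3) on log2(FPKM + 1), two-sided, with an intensity trend, group as the only term, and p-values adjusted by Benjamini-Hochberg over the table. On simulated reads for this comparison (19976 transcripts passing the filter) the test called 60% of 4-fold and 100% of 16-fold changes, and 8 unchanged transcripts. The simulation used the same dispersion for all transcripts and changed only some above the median level. Its rates therefore need not hold for the members. Members and lists were chosen with earlier results of these data known. Named are all 7 members, the 6 other mitochondrial protein transcripts and the 2 transcripts of most similar profile. The 6 others were taken by their known Ensembl identifiers, and with totals derived from the 7 members alone, which were the same in 6 of 6 libraries, the length search returned the RefSeq length for 6 of these 6. Scores over members carry no p. At most 0.001% of values above 0 were equal between libraries, so all 6 were kept. Python 3.11.15, NumPy 2.4.6, pandas 2.3.3, SciPy 1.17.1 and matplotlib 3.10.9 were used.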

Additional observations from a re-analysis of the deposited data

How the results depend on the processing

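None of the 7 complex I transcripts or the 6 other mitochondrial ones passed in any alternative limma fit that included it. Some of these fits could hardly call an abundant member. The SE of MT-ND2 was 8.23 with a pseudocount of 0.1 and 8.79 with no filter, against 0.81 in the main fit. There were 16 such fits for 8 of the 13, and 1, with no filter, for MT-ND4L, MT-ND6, MT-CO3, MT-ATP6 and MT-ATP8. Adjusted p-values of the members lay between 0.476 and 1. Quantile normalization turned the log2 differences of MT-ND1 (-0.119), MT-ND3 (-0.0755) and MT-CO1 (-0.238). With single libraries left out the differences ran from -0.072 (without PC3 replicate 2) to 0.477 for MT-ND1, from -0.0794 (without PC3 replicate 2) to 0.364 for MT-ND3 and from -0.0841 (without PC3 replicate 2) to 0.430 for MT-ND4. They ran from -0.203 (without PC3-DR replicate 1) to 0.487 for MT-ND5 and from -0.0394 to 0.610 for MT-CYB. For MT-CO1 they ran from -0.116 to 0.237 and for MT-CO2 from -0.153 to 0.223. MT-CYB turned without PC3 replicate 2, and MT-CO1 and MT-CO2 turned without PC3 replicate 2 and without PC3-DR replicate 1. Quantile normalization sets MT-ND2 to the same value in all libraries by construction, since it ranks first in each. The cause of the other shifts was not tested.

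The whole-table count of 1 in limma became 0 with voom, without the trend, after rescaling by the median of ratios, with either other pseudocount (0.1 and 5), and with the filter dropped or set to 5 FPKM. It became 6 with robust hyperparameters. In these fits between 57 and 3008 transcripts had an unadjusted p under 0.05. Leaving out single libraries gave 0 to 1. With a replicate block 0 passed (1707 at an unadjusted p under 0.05), and the blocked differences of the members were unchanged, with adjusted p-values of 0.902 or more. Same-numbered libraries correlated at 0.192, -0.004 and 0.093 in their deviations from the group means, so the numbers were not taken to pair the libraries. The mean sum of the 7, with MT-ND6, was 9629.6 FPKM higher in PC3-DR, but the groups overlapped. The gap was 20525.6 after rescaling by the median of ratios, which moved the median of tested transcripts from -0.13 to 0.00. By library left out the gap ran from 3486.6 (PC3 replicate 2) to 13987.7 (PC3 replicate 3). MT-ND4L in all libraries and MT-ND6 in 4 held reads in single digits, and the part of depth in this was not tested.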
